A study of Mus musculus with 9 samples.

Results

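Phagocytes that carry a red fluorescent reporter at the chemokine receptor gene Ccr2, labelled migratory, were compared in the mouse peritoneal wall with both populations of resident macrophages labelled sessile, pooled as 1 side. The populations were read from the column headings of the deposited table: 3 CCR2-RFP libraries against 6 sessile libraries, which are all 9 libraries of the series. Attention was given to genes whose 3 CCR2-RFP values lay all above or all below the 6 sessile values, called separated here. Of 10136 genes with at least 1 TPM (a library's share of transcripts, corrected for transcript length) in at least 3 libraries, 2899 (28.6%) were separated. CCR2-RFP values lay above in 1852 genes (18.3%) and below in 1047 (10.3%). Because separation picks genes by the measured difference, the genes leading it are described without a test. Calls come from a fit over the whole table.

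All animals were Cx3cr1gfp/+ Ccr2rfp/+ F1 mice, so every group carried a green reporter in a single allele of Cx3cr1 and a red reporter in a single allele of Ccr2; their ages do not appear in the labels. Each animal had received 50 µg of Dextran-Cascade Blue into a vein 1 day before perfusion, and the excised wall was then treated with Liberase for 20 minutes. CD11b+Ly6G- cells were sorted into 3 populations. The CCR2-RFP sort took MHCII+Ccr2+Cx3cr1- cells, 10 to 15% of the gate, and the labels call them migratory tissue monocytes. The CX3CR1-GFP sort took MHCII+Ccr2-Cx3cr1+ cells, 0.5 to 1.5% of the gate. Double-negative cells (85 to 90%) had taken up dextran and lacked MHC class II and both reporters. MHC class II staining is thus shared by CCR2-RFP and CX3CR1-GFP cells and not by double-negative cells, and dextran uptake was a criterion for double-negative cells alone. Movement itself was not measured in these files. Per the series design 3 mice were carried through as 3 replicates per population, with the sort labels 1, 2A and 2B, and values below stand in that order. Where 3 values are set against a range, the 3 are the CCR2-RFP libraries and the range is that of the 6 sessile libraries.

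A leukocyte that crawls through tissue reads chemoattractants with G protein-coupled receptors, which act on the actin cytoskeleton. Branched actin made by the Arp2/3 complex pushes the front, while myosin II pulls in the rear, and integrins coupled to talin and vinculin hold the cell to matrix and to other cells. Resident macrophages of serous and connective tissue hold long-lived positions, depend on the growth factor receptor encoded by Csf1r and are known for scavenger receptors and the transcription factor MAF. Monocyte-derived cells that enter tissue depend on CCR2 to leave the bone marrow.

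The genes behind the sort were read as a check of the labels. Ccr2 (chromosome 9, 124101950 to 124113557, GRCm38, gene bounds from GENCODE here and below) was 95.4, 111 and 115 TPM in CCR2-RFP, 4.29, 5.03 and 6.68 TPM in CX3CR1-GFP and 2.12, 1.65 and 4.62 TPM in double-negative libraries. All 3 CCR2-RFP libraries lay far above the others, with low levels listed in every sessile library. The CD11b gene Itgam was 41.1, 50.6 and 49.2 TPM in CCR2-RFP and 16.99 TPM (median; 11.8 to 20.4) in sessile libraries, so all populations carried it and it was highest in CCR2-RFP cells. The MHC class II gene H2-Aa, whose product was a sort criterion, was 1682, 1937 and 1904 TPM in CCR2-RFP, 467, 893 and 658 TPM in CX3CR1-GFP and 44.3, 68.7 and 91.7 TPM in double-negative libraries, which orders the populations as CCR2-RFP, CX3CR1-GFP and double-negative without overlap. CX3CR1-GFP libraries held 6.51, 16.4 and 4.13 TPM of Cx3cr1, and the other 6 listed it at 0.

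Whole libraries differed in ways that touch every value. Pearson correlation of log2 values over all genes kept was 0.794 to 0.864 between CCR2-RFP and sessile libraries, 0.879 to 0.937 between CX3CR1-GFP and double-negative libraries, and 0.904 to 0.964 within populations. The listed TPM summed to 356787 to 382828 in CCR2-RFP, 278579 to 301604 in CX3CR1-GFP and 324050 to 357087 in double-negative libraries. Ribosomal protein genes summed to 15746 to 17603 TPM in CCR2-RFP and 7950 to 10789 TPM in sessile libraries (exact permutation test, 3 against 6 libraries, two-sided p = 0.0119, the smallest the design allows, adjusted p = 0.0674 over 17 sums). Mitochondrially encoded mRNA summed to 7491 to 10259 TPM in CCR2-RFP and 8914 to 19514 TPM in sessile libraries (exact permutation p = 0.0714, adjusted 0.202). TPM is a share of a total, so these sums can shift the other genes, and how far they do was tested by rescaling.

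In the fit over all 10136 genes (limma on log2(TPM + 1), CCR2-RFP against the mean of both sessile populations, adjusted p below 0.05) 3064 genes (30.2%) were called. Of these, 1933 (19.1%) were higher and 1131 (11.2%) lower in CCR2-RFP cells, a split of 63.1% higher. That split depended on the scaling. It was 58.2% with median-of-ratios scaling (1706 higher, 1226 lower) and 50.2% with quantile normalization (1337 and 1326). With mitochondrial, ribosomal protein and ribosomal RNA genes left out and the rest rescaled it was 41.2% (1110 and 1586), and 41.3% with Siglece left out too (1141 and 1619). Siglece, a lectin gene, alone took 61107 to 123879 TPM per library. The median log2 fold change of all genes was 0.09 as deposited and moved by -0.20 at most. Under all 5 scalings, 1075 genes (10.6%) were called higher and 1075 (10.6%) lower, and for each list below the members called under all 5 are counted beside the members called with the deposited values. For each list the number kept is the number that passed the filter on low values. In several lists some members reached 1 TPM on 1 side alone, and the filter favoured that direction for them. The shares over all genes given here are the background for each list: 19.1% higher and 11.2% lower as deposited, and 10.6% each under all 5 scalings.

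**Figure D1:**
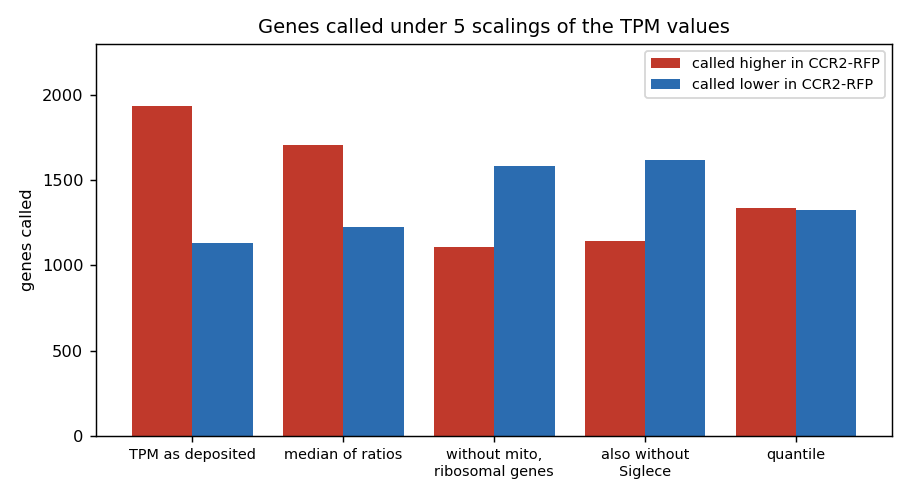
Number of genes called higher (red) and lower (blue) in CCR2-RFP cells against both sessile populations under 5 scalings of the TPM values (bars, from 0). Higher calls lead with deposited values (1933 against 1131), and lower calls lead once mitochondrial and ribosomal genes are left out (1110 against 1586).

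Outside the genes behind the sort, the 12 genes called higher at 10 TPM or more with the widest gap above the sessile cells were Lyz1, Ltb4r1, Ear2, Cd226, Pilra, H2-DMb2, Fn1, Tnip3, Hopx, Aldh1a2, Mucl1 and Spink2. Lyz1, a lysozyme gene (chromosome 10, 117287797 to 117292868), was 1043, 916 and 1179 TPM in CCR2-RFP, 7.56, 3.24 and 10.3 TPM in CX3CR1-GFP and 18.2, 18.1 and 54.96 TPM in double-negative libraries. The lowest CCR2-RFP value and the highest sessile value were 4.03 apart on log2(TPM + 1), the widest gap of all genes tested, and the sessile levels were themselves uneven. Ltb4r1 (chromosome 14, 55765962 to 55768494), the high-affinity receptor for the chemoattractant leukotriene B4, was 24.8, 27.3 and 27.2 TPM in CCR2-RFP, 0, 0 and 0.330 TPM in CX3CR1-GFP and 0, 0.276 and 0.646 TPM in double-negative libraries. It was near or at a listed 0 in every sessile library. Fn1 (chromosome 1, 71585520 to 71653200), which encodes the matrix protein fibronectin, was 1116, 1058 and 1368 TPM in CCR2-RFP, 6.73, 33.2 and 65.3 TPM in CX3CR1-GFP and 42.2, 76.4 and 63.5 TPM in double-negative libraries. CX3CR1-GFP 1 lay below the other sessile libraries, and all 6 lay far below CCR2-RFP.

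Ear2, an eosinophil-associated ribonuclease gene also used as a monocyte marker, was 273, 285 and 448 TPM in CCR2-RFP and 2.89 TPM (median; 0.438 to 16.6) in sessile libraries. Cd226, an immunoglobulin-type adhesion receptor, was 61.1, 51.7 and 57.1 TPM in CCR2-RFP and 0.725 TPM (median; 0.0495 to 2.51) in sessile libraries. Aldh1a2 (chromosome 9, 71215789 to 71296243), which encodes a retinaldehyde dehydrogenase that makes retinoic acid, was 23.1, 22.9 and 23.9 TPM in CCR2-RFP and 0.411 TPM (median; 0.0649 to 0.935) in sessile libraries. All 3 genes were low in every sessile library, and Ear2 varied most among the CCR2-RFP libraries. Tnip3, an inhibitor of NF-kappaB signalling, was 76.4, 78.5 and 76.8 TPM in CCR2-RFP and 0.473 to 4.697 TPM in sessile libraries. Hopx, a homeodomain-only protein gene, was 42.3, 36.6 and 46.1 TPM against 0.0726 to 1.96 TPM. Pilra, an inhibitory immunoglobulin-like receptor gene, was 36.04, 29.2 and 36.9 TPM against 0.332 to 1.05 TPM. These 3 genes had sessile levels of a few TPM at most. H2-DMb2, which encodes a chain of the peptide editor for MHC class II, was 33.6, 26.3 and 28.9 TPM against 0.108 to 0.929 TPM. Mucl1 was 35.9, 34.1 and 25.99 TPM and was listed at 0 in 3 of 6 sessile libraries. Spink2, a serine protease inhibitor gene, was 18.4, 12.3 and 12.97 TPM and listed at 0 in 5 of 6. Ltb4r1, Aldh1a2, H2-DMb2 and Spink2 passed the filter on low values through CCR2-RFP libraries alone and so had to differ. Lyz1 has the near-identical copy Lyz2, Ear2 belongs to a family of near-identical genes and H2-DMb2 resembles H2-DMb1, so how reads were divided within those families is uncertain.

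On the lower side the widest gaps by the same rule belonged to Clec5a, Ctla2b, Aoah, Ms4a6b, Siglech, Slco2b1, Ms4a7, Hpgds, Hpgd, Prune2, Stab1 and P2ry12. Clec5a (chromosome 6, 40574894 to 40585821), a C-type lectin receptor of myeloid cells, was 0.903, 0.642 and 0.654 TPM in CCR2-RFP, 17.1, 13.8 and 11.4 TPM in CX3CR1-GFP and 12.7, 10.996 and 14.1 TPM in double-negative libraries. Its gap of 2.66 was the widest in this direction, narrower than the widest on the higher side. Clec5a passed the filter on low values through sessile libraries alone, so the filter favoured a lower level in CCR2-RFP cells. Ctla2b (chromosome 13, 60895350 to 60897447), a cysteine protease inhibitor-like gene, was 1.71, 0.4096 and 1.67 TPM in CCR2-RFP, 18.8, 28.4 and 15.7 TPM in CX3CR1-GFP and 18.7, 20.2 and 17.2 TPM in double-negative libraries. CCR2-RFP 2A was the lowest library. Stab1 (chromosome 14, 31139013 to 31168641), the scavenger receptor stabilin-1, was 11.5, 3.298 and 5.47 TPM in CCR2-RFP, 84.03, 87.4 and 91.02 TPM in CX3CR1-GFP and 90.3, 79.9 and 63.4 TPM in double-negative libraries. The CCR2-RFP libraries differed by several fold among themselves but all stayed below every sessile library.

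Hpgds (chromosome 6, 65117293 to 65144908), which makes prostaglandin D2, was 2.71, 0.567 and 1.84 TPM in CCR2-RFP and 22.3 TPM (median; 18.8 to 24.3) in sessile libraries. Hpgd, which inactivates prostaglandins, was 12.6, 9.48 and 10.3 TPM in CCR2-RFP and 81.9 TPM (median; 70.5 to 96.3) in sessile libraries. Aoah, which deacylates lipopolysaccharide, was 1.57, 1.07 and 1.76 TPM in CCR2-RFP and 17.9 TPM (median; 15.1 to 25.7) in sessile libraries. These 3 lipid-handling enzymes varied less than 2-fold among the 6 sessile libraries. Slco2b1, an organic anion transporter gene, was 3.302, 2.08 and 2.92 TPM in CCR2-RFP and 22.3 to 32.2 TPM in sessile libraries. P2ry12, the ADP receptor known from microglia, was 4.81, 2.26 and 4.19 TPM against 28.4 to 34.6 TPM. Ms4a7 was 5.17, 1.12 and 1.36 TPM against 31.98 to 48.4 TPM and Siglech, a sialic acid-binding lectin gene, 3.35, 1.33 and 1.1995 TPM against 23.1 to 43.9 TPM. Each remained detectable in CCR2-RFP libraries, with CCR2-RFP 1 the highest of the 3 for these 4 genes. Ms4a6b was 7.81, 3.85 and 5.65 TPM against 49.1 to 71.4 TPM and Prune2 3.52, 1.69 and 4.199 TPM against 25.8 to 29.5 TPM. Members of the Ms4a6, Ctla2 and Siglec families share sequence, so the split of reads within each is uncertain.

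**Figure D2:**
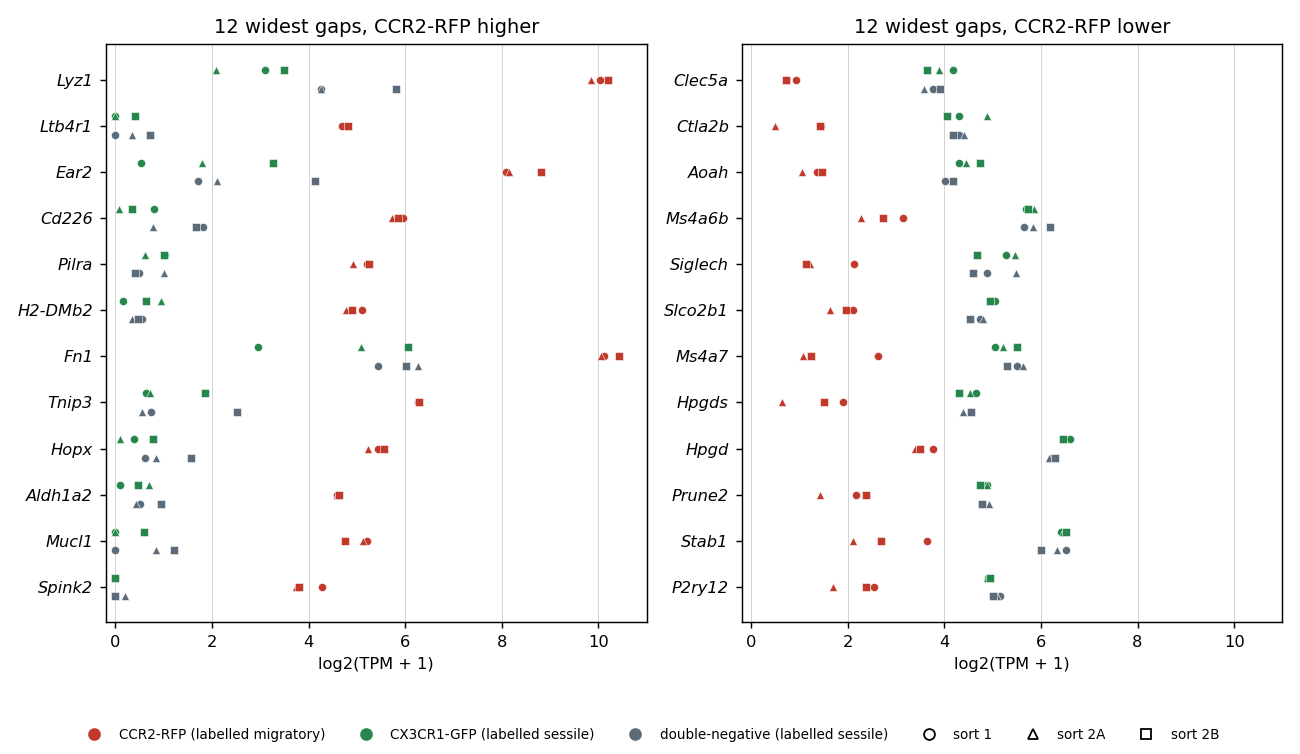
Level of the 12 genes with the widest gap in each direction, outside the genes behind the sort (log2(TPM + 1) on the horizontal axis) in every library: colours are populations and shapes are sorts. Red points (CCR2-RFP) stand to the right of all green and grey points on the left panel and to the left of them on the right panel, since separation chose the genes.

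Sessile libraries held a low remainder of the genes highest in CCR2-RFP cells, and the reverse. As a percentage of the CCR2-RFP mean, the 12 widest-gap higher genes had a median of 0.468, 0.522 and 1.7% in the CX3CR1-GFP libraries and 1.22, 1.35 and 4.07% in the double-negative libraries. Double-negative 2B had the highest median of the 6. As a percentage of the sessile mean, the 12 widest-gap lower genes had a median of 12.6, 5.21 and 8.86% in the CCR2-RFP libraries. Whether such remainders come from a few cells of the other population or from low expression in every cell cannot be told apart in bulk RNA, where fewer cells of a type and less RNA per cell give the same value.

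The promoters of the genes leading each side, chosen because they rank highest by gap and have a single RefSeq start, show the letters upstream of genes that differ most. Of the 24 genes above, 21 matched the RefSeq table (GRCm38.p6). Sequences are the 250 bases before the start, 5′ to 3′ on the gene's strand, and capitals mark motif matches, of the motif as spelled below or its reverse complement. Lyz1 (chr10:117292869-117293118, minus strand) holds a C/EBP match at -209 to -202 and Ltb4r1 (chr14:55765712-55765961, plus strand) a PU.1 match at -130 to -124. Clec5a (chr6:40585806-40586055, minus strand, its start taken from RefSeq) holds PU.1 matches at -82 to -76 and at -56 to -50. Ctla2b (chr13:60897448-60897697, minus strand) holds an AP-1 match at -143 to -137 and a cyclic AMP half-site at -72 to -67.
Lyz1: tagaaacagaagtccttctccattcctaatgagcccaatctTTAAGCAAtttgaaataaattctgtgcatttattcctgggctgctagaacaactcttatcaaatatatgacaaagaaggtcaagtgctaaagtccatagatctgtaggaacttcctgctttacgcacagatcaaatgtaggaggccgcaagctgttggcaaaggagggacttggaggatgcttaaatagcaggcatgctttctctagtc
Ltb4r1: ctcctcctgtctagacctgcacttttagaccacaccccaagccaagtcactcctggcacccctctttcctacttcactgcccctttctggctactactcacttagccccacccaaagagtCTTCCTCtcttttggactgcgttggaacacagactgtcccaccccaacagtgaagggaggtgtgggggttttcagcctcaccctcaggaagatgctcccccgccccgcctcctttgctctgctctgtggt
Clec5a: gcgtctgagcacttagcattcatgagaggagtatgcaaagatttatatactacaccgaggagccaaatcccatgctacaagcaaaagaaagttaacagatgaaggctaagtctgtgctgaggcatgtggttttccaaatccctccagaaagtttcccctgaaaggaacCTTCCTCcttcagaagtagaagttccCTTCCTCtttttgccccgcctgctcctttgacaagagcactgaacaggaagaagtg
Ctla2b: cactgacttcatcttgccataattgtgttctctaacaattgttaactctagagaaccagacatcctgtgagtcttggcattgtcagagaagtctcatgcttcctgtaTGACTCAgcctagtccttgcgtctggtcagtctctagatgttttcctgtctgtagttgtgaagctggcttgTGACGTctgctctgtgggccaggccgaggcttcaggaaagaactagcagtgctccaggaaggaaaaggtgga

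Matches on either strand were counted in the 6060 genes kept that have a single start in the table, and in the separated and called genes with a gap of at least 1 on log2(TPM + 1), 175 higher and 89 lower. The PU.1 motif GAGGAAG stood in 21.7% of the higher, 30.3% of the lower and 11.4% of all promoters, so both directions held it more often than the whole set. Over all separated and called genes with a window, 995 higher and 497 lower, the shares lay closer to the whole set, at 13.6% and 14.3% for PU.1, 5.93% and 5.84% for AP-1 and 8.04% and 8.65% for C/EBP. AP-1 (TGANTCA) stood in 10.9%, 6.74% and 4.22%, and C/EBP (TTGCNNAA) in 12%, 15.7% and 7.51%. The cyclic AMP half-site TGACGT stood in 5.71%, 7.87% and 11.4%, less often than in all promoters. The E-box CACGTG (9.14%, 5.62% and 8.73%), the Maf half-site TGCTGAC (2.29%, 2.25% and 2.95%), the kappaB motif (8.0%, 8.99% and 8.6%) and the CArG box (2.29%, 2.25% and 1.19%) completed the search. The Maf half-site can overlap an AP-1 match. Base composition moved with the groups: the median GC content was 58.4% in the higher, 54.8% in the lower and 60.0% in all promoters, with a median of 10, 7 and 17 CG pairs, and its part in these shares was not tested. A match is a run of letters and not a bound site, and no test was made.

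The sessile populations were also set side by side, with calls from the fit over the whole table. Separation reads the highest and the lowest sessile value and so is not independent of the sessile difference. The counts among separated genes are therefore a description. Over all genes 281 (2.77%) were called between CX3CR1-GFP and double-negative cells, 118 (1.16%) higher and 163 (1.61%) lower in CX3CR1-GFP cells. Of the 281, 129 were also separated and called, as were 2546 (25.1%) of all genes tested. Among the 1645 genes (16.2% of those tested) separated and called higher in CCR2-RFP cells, 65 differed between the sessile populations, 38 higher in CX3CR1-GFP and 27 higher in double-negative cells. Among the 901 (8.89%) separated and called lower, 64 differed, 22 and 42 respectively. The sessile means lay within 2-fold of each other for 96.2% of the higher, 93.1% of the lower and 96.1% of all genes tested. From the sessile mean, 838 of the higher and 483 of the lower genes differed by at least 2-fold, and 75 and 19 by at least 8-fold. Over all 10136 genes tested, 1531 differed by at least 2-fold and 94 by at least 8-fold. Separated and called genes were picked by this same difference, so its size beside the sessile difference follows from the selection.

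Some separated genes had sessile populations far apart. Retnla (chromosome 16, 48842551 to 48844461), which encodes the secreted protein RELM-alpha, was 12395, 10766 and 16041 TPM in CCR2-RFP, 200.5, 167 and 269 TPM in CX3CR1-GFP and 3739.9, 4723 and 4432 TPM in double-negative libraries. The sessile populations differed by a log2 fold change of -4.35 ± 0.21 (SE; limma, adjusted p = 1.25e-05), with double-negative cells between CX3CR1-GFP and CCR2-RFP cells. Il1b, the inflammatory cytokine interleukin 1 beta, was 191, 265 and 225 TPM in CCR2-RFP, 34.998, 98.5 and 35.8 TPM in CX3CR1-GFP and 5.31, 9.49 and 7.78 TPM in double-negative libraries, and here CX3CR1-GFP cells were the intermediate ones (sessile log2 difference 2.61 ± 0.36, adjusted p = 0.00391). Ms4a8a was 26.1, 24.7 and 26.4 TPM in CCR2-RFP, 0.425, 1.13 and 2.97 TPM in CX3CR1-GFP and 13.5, 19.2 and 19.9 TPM in double-negative libraries, so CCR2-RFP cells were nearer to double-negative cells. Glipr1 was 20.02, 19.7 and 18.3 TPM in CCR2-RFP, 10.6, 14.5 and 7.099 TPM in CX3CR1-GFP and 1.22, 1.88 and 1.28 TPM in double-negative libraries, nearer to CX3CR1-GFP cells. Both differed between the sessile populations (adjusted p = 0.00118 and 0.00116). Among lower genes Cd93, a C-type lectin-like receptor gene, was 3.97, 0.968 and 1.53 TPM in CCR2-RFP, 61.4, 55.2 and 65.5 TPM in CX3CR1-GFP and 16.1, 25.1 and 12.2 TPM in double-negative libraries. Ccl8, a chemokine gene, was 7.83, 2.86 and 16.04 TPM in CCR2-RFP, 19.3, 18.1 and 29.6 TPM in CX3CR1-GFP and 98.7, 171 and 242 TPM in double-negative libraries. CX3CR1-GFP cells were the higher sessile population for Cd93 and the lower for Ccl8 (adjusted p = 0.0211 and 0.0135). Folr2, a folate receptor of resident macrophages, was 45.7, 14.03 and 30.7 TPM in CCR2-RFP, 79.2, 57.5 and 67.2 TPM in CX3CR1-GFP and 265, 200.1 and 261.01 TPM in double-negative libraries. The complement gene C4b was 38.2, 22.1 and 29.4 TPM in CCR2-RFP, 41.1, 38.6 and 54.8 TPM in CX3CR1-GFP and 236, 419.7 and 219.6 TPM in double-negative libraries. CX3CR1-GFP cells lay nearer to CCR2-RFP cells in both (sessile adjusted p = 0.0195 and 0.001). For Ms4a8a, Ccl8 and C4b the call against sessile cells was lost when each sessile population had to differ from CCR2-RFP cells on its own.

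Other separated genes had sessile populations that were level. Adss, an enzyme of AMP synthesis, was 19.1, 16.4 and 20.7 TPM in CCR2-RFP, 4.196, 4.52 and 4.19 TPM in CX3CR1-GFP and 4.49, 3.85 and 4.596 TPM in double-negative libraries. The ubiquitin-conjugating enzyme gene Ube2l3 was 33.4, 29.7 and 40.8 TPM in CCR2-RFP and 16.02 to 21.8 TPM in sessile libraries. Ifnar2, a subunit of the type I interferon receptor, was 13.9, 16.2 and 16.8 TPM against 22.9 to 26.8 TPM, lower in CCR2-RFP cells. Arglu1 was 35.7, 35.2 and 34.5 TPM against 16.2 to 30.5 TPM, and its call was lost under each other scaling.

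**Figure D3:**
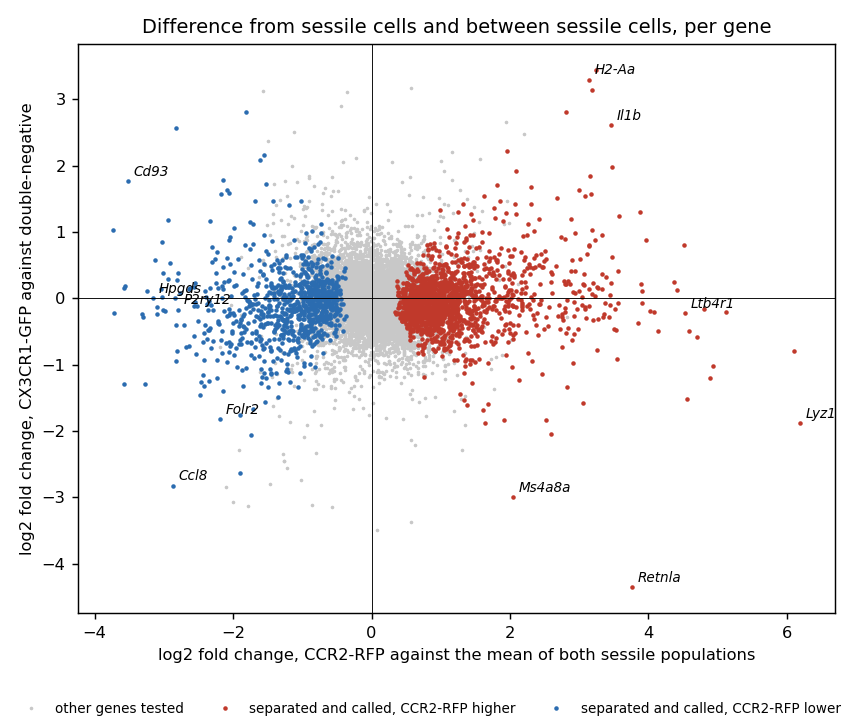
Each point is a gene: the horizontal axis is the log2 fold change of CCR2-RFP against both sessile populations and the vertical axis that of CX3CR1-GFP against double-negative cells. Coloured points (1645 red, 901 blue) are separated and called; most lie near 0 on the vertical axis, and Retnla (-4.35) and Il1b (2.61) lie on opposite sides of it.

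Identity genes were counted next, with members called over the whole table. Of 26 monocyte genes listed and 21 kept, 13 were higher, 1 lower and 7 did not pass (median log2 fold change 1.48), and 12 higher and 1 lower were called under all 5 scalings. The S100 genes of calcium-binding proteins S100a4, S100a6, S100a10 and S100a11 were higher, with S100a11 at 310.3, 252 and 334 TPM in CCR2-RFP and 31.7 TPM (median; 25.4 to 37.03) in sessile libraries. S100a8 and S100a9, the calprotectin genes, did not pass: S100a8 was 0, 0 and 0.0613 TPM in CCR2-RFP and 1.28 TPM (median; 0 to 3.44) in sessile libraries (log2 fold change -1.14 ± 0.40, adjusted p = 0.0538). S100a9 was 0.136, 0.2703 and 0.1498 TPM in CCR2-RFP and 2.75 TPM (median; 0 to 16.7) in sessile libraries (-1.88 ± 0.74, adjusted p = 0.0811). Napsa, an aspartic protease gene, was 12.6, 11.7 and 15.03 TPM in CCR2-RFP and 0.408 TPM (median; 0.251 to 1.55) in sessile libraries (log2 fold change 3.11 ± 0.21, adjusted p = 3.45e-06). Ly6c2, Vcan, Chil3 and Hp, classical monocyte genes on the same list, fell below the filter on low values, with Ly6c2 at most 1.96 TPM and Vcan at most 0.759 TPM in any library. Plac8 was 1.602, 0.319 and 1.95 TPM in CCR2-RFP and 2.34 TPM (median; 0 to 3.41) in sessile libraries and did not pass (adjusted p = 0.712), with the groups overlapping. F13a1, a coagulation factor gene, was the member lower in CCR2-RFP cells, at 135, 104 and 144 TPM in CCR2-RFP and 280.1 TPM (median; 155 to 378) in sessile libraries.

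Of 30 dendritic cell genes listed and 21 kept (median log2 fold change 1.22), 13 were higher and 4 lower, all under all 5 scalings, and 4 did not pass. Cd24a, a glycosylated surface protein gene, was 77.001, 88.95 and 80.1 TPM in CCR2-RFP and 4.46 TPM (median; 2.95 to 8.45) in sessile libraries. Cd209a, a C-type lectin gene of monocyte-derived and type 2 dendritic cells, was 79.2, 121 and 79.4 TPM in CCR2-RFP, 5.301, 7.51 and 6.95 TPM in CX3CR1-GFP and 23.6, 58.5 and 19.6 TPM in double-negative libraries, so double-negative cells, 2A above all, also carried it. Clec9a and Xcr1 mark conventional type 1 dendritic cells. Clec9a was 3.12, 6.12 and 6.47 TPM in CCR2-RFP libraries and 0 to 1.39 TPM in sessile libraries, and Xcr1 1.32, 1.63 and 1.22 TPM against 0 to 0.0826 TPM, both low. Batf3, a transcription factor of those cells, was 23.9, 21.3 and 18.1 TPM in CCR2-RFP and 3.47 TPM (median; 2.58 to 6.47) in sessile libraries (log2 fold change 2.20 ± 0.18, adjusted p = 1.21e-05). Irf8, another of their factors, went the other way at 2.76, 1.29 and 3.34 TPM in CCR2-RFP and 11.5 TPM (median; 9.07 to 12.99) in sessile libraries (log2 fold change -1.87 ± 0.22, adjusted p = 0.000112). Zbtb46 did not pass (adjusted p = 0.798), and Ccr7, the lymph node homing receptor of mature dendritic cells, was at most 0.893 TPM in any library. Of the members kept, 2 passed the filter through CCR2-RFP libraries alone, Xcr1 among them, and so had to differ.

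Resident macrophage genes were mostly lower: of 44 listed and 41 kept, 36 were lower, 2 higher and 3 did not pass, with a median log2 fold change of -1.68 against 0.09 for all genes. All 36 lower calls held under all 5 scalings, and 1 of the 2 higher. Slc40a1, the iron exporter ferroportin, was 1.1002, 0.414 and 1.96 TPM in CCR2-RFP and 18.8 TPM (median; 10.4 to 33.8) in sessile libraries (log2 fold change -3.27 ± 0.23, adjusted p = 4.09e-06). Fcgr1, the high-affinity receptor for IgG, was 2.01, 0.105 and 0.267 TPM in CCR2-RFP and 11.9 TPM (median; 10.5 to 14.7) in sessile libraries. Colec12, a scavenger receptor gene, was 3.38, 1.64 and 1.43 TPM in CCR2-RFP, 28.02, 19.2 and 20.1 TPM in CX3CR1-GFP and 56.5, 56.5 and 53.98 TPM in double-negative libraries, lowest in CCR2-RFP, intermediate in CX3CR1-GFP and highest in double-negative cells without overlap. Of the 41, 16 also differed between the sessile populations, 15 of them lower in CX3CR1-GFP cells. Mrc1, the mannose receptor, was 119.7, 110.5 and 112 TPM in CCR2-RFP and 329 TPM (median; 258 to 365) in sessile libraries. Adgre1, which encodes F4/80, was 44.7, 41.2 and 38.6 TPM in CCR2-RFP and 76.8 TPM (median; 72.3 to 83.4) in sessile libraries, so neither was absent from CCR2-RFP cells. Sdc3, a syndecan gene, was the higher member under all scalings, at 29.1, 25.96 and 34.8 TPM in CCR2-RFP and 13.8 TPM (median; 7.28 to 17.4) in sessile libraries.

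Chemoattractant receptors stood in both directions. Of 41 listed and 21 kept, 7 were higher, 11 lower and 3 did not pass, and 6 and 9 were called under all 5 scalings (median log2 fold change -0.48). Ccr2, counted as higher, and Cx3cr1, counted as lower, are the reporter genes of the sort, so their calls follow from it. Ltb4r1 and Gpr35 passed the filter on low values through CCR2-RFP libraries alone and so had to differ. Through sessile libraries alone 2 members passed, Cx3cr1 among them. Higher members bind leukotriene B4 (Ltb4r1, above), CC chemokines (Ccr2 among them), chemerin (Ccrl2, which presents it) and lysophosphatidic acid (Lpar5), beside Gpr35 and Cysltr1. Gpr35 was 9.54, 12.9 and 12.1 TPM in CCR2-RFP and 0.264 TPM (median; 0.09703 to 0.843) in sessile libraries. Ccrl2 was 23.1, 35.4 and 29.6 TPM in CCR2-RFP, 7.16, 9.07 and 4.97 TPM in CX3CR1-GFP and 1.95, 2.19 and 1.26 TPM in double-negative libraries, with CX3CR1-GFP cells between the other populations.

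Lower members included receptors for complement fragments. C5ar1, the C5a receptor, was 37.2, 21.3 and 26.1 TPM in CCR2-RFP and 123 TPM (median; 106 to 173) in sessile libraries (log2 fold change -2.20 ± 0.18, adjusted p = 1.09e-05). C3ar1, the C3a receptor, was 49.9, 43.5 and 63.7 TPM in CCR2-RFP and 184 TPM (median; 169.7 to 206) in sessile libraries (-1.82 ± 0.14, adjusted p = 6.44e-06). Both were separated, and both stayed well expressed in CCR2-RFP cells. S1pr1 and Gpr183 were lower too. S1pr1, the sphingosine 1-phosphate receptor used for exit from tissue by lymphocytes, was 2.64, 0.823 and 2.44 TPM in CCR2-RFP and 13.5 TPM (median; 8.31 to 20.8) in sessile libraries. Gpr183, the oxysterol receptor EBI2, was 6.82, 3.59 and 3.802 TPM in CCR2-RFP and 26.2 TPM (median; 14.3 to 42.3) in sessile libraries. Cmklr1, the signalling chemerin receptor, was 9.004, 9.05 and 9.02 TPM in CCR2-RFP, 22.5, 17.5 and 21.6 TPM in CX3CR1-GFP and 32.2, 32.8 and 30.2 TPM in double-negative libraries. Cmklr1 and Ccrl2, which bind the same ligand, thus stood in opposite directions. Ccr1 (44.7 to 69.5 TPM in CCR2-RFP, 34.8 to 77.3 TPM in sessile libraries, adjusted p = 0.563) and Cxcr4 (17.3 to 20.6 against 13.2 to 29.5 TPM, adjusted p = 0.976) did not pass. Without CCR2-RFP 2A and CX3CR1-GFP 2A, the libraries highest in skeletal muscle genes, 5 members were higher and 7 lower of 18 kept, beside 16.0% and 10.5% of the 9564 genes tested there. With 2 CCR2-RFP libraries left, a gene at 1 TPM in CCR2-RFP cells alone cannot meet the filter of 3 libraries, so such genes drop from each count without these libraries, P2ry1 and P2ry10 among them.

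Below the receptors, G protein and PI3K signalling genes counted 16 higher, 6 lower and 11 not passed of 33 listed and 33 kept (median log2 fold change 0.41; 9 and 6 under all 5 scalings). Rgs1, which shuts off G protein signals from chemokine receptors, was 78.2, 52.6 and 72.1 TPM in CCR2-RFP, 18.002, 13.3 and 11.4 TPM in CX3CR1-GFP and 5.84, 1.42 and 5.77 TPM in double-negative libraries. Plcb2, a phospholipase C activated by chemoattractant receptors, was 7.62, 9.304 and 8.53 TPM in CCR2-RFP, 1.46, 2.13 and 2.19 TPM in CX3CR1-GFP and 0.475, 0.389 and 0.1702 TPM in double-negative libraries. Both were lowest in double-negative cells and differed between the sessile populations (adjusted p = 0.0476 and 0.0156). Pik3r5, the regulatory subunit p101 of PI3K gamma, was 8.33, 9.81 and 11.9 TPM in CCR2-RFP and 3.67 TPM (median; 2.21 to 4.87) in sessile libraries. Its catalytic partner Pik3cg was lower, with a log2 fold change of -1.02 ± 0.21 (adjusted p = 0.00393). Gna12, a G protein alpha subunit, was 5.63, 7.59 and 10.2 TPM in CCR2-RFP and 20.7 TPM (median; 16.9 to 29.4) in sessile libraries. Rgs10, another inhibitor of G protein signals, was 35.8, 27.1 and 30.5 TPM in CCR2-RFP and 70.5 TPM (median; 56.9 to 92.1) in sessile libraries. Arrb2, beta-arrestin 2, was 10.8, 10.6 and 11.6 TPM in CCR2-RFP and 21.7 TPM (median; 15.1 to 28.8) in sessile libraries. Gna12, Rgs10 and Arrb2 were all lower.

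Single genes of Rac and related signalling are given next as examples named after their values were seen, and other genes of this kind did not pass the test. Rac2, the Rac of blood cells, was 46.8, 42.7 and 61.04 TPM in CCR2-RFP, 10.1, 6.49 and 10.5 TPM in CX3CR1-GFP and 18.3, 16.2 and 15.6 TPM in double-negative libraries (log2 fold change 1.94 ± 0.18, adjusted p = 2.05e-05). Rac1, present in all cell types, was 160.0, 148 and 151 TPM in CCR2-RFP and 88.9 TPM (median; 63.5 to 97.9) in sessile libraries. Rac3 was 2.52, 0.111 and 0.471 TPM in CCR2-RFP and 4.04 TPM (median; 3.41 to 6.91) in sessile libraries, lower in CCR2-RFP cells. The 3 Rac genes therefore differed in direction, and Rac3 was the scarcest in TPM. Rhoa was 165, 180.0 and 181 TPM in CCR2-RFP and 129 TPM (median; 94.3 to 139) in sessile libraries, a difference of 0.48 ± 0.12 that did not pass under every scaling. Rhob was 94.4, 36.4 and 75.7 TPM in CCR2-RFP and 162 TPM (median; 121 to 197) in sessile libraries. Rhoj, known from endothelium, was 0.687, 0.204 and 0.491 TPM in CCR2-RFP and 4.69 TPM (median; 2.79 to 7.52) in sessile libraries. Both Rhob and Rhoj were lower. Rhoj passed the filter on low values through sessile libraries alone, so the filter favoured a lower level in CCR2-RFP cells. Rnd3 was 15.7, 15.4 and 16.3 TPM in CCR2-RFP and 5.36 TPM (median; 3.54 to 7.91) in sessile libraries.

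Tiam1, an activator of Rac, was 22.1, 25.998 and 22.6 TPM in CCR2-RFP, 1.45, 3.27 and 2.01 TPM in CX3CR1-GFP and 2.16, 3.15 and 1.68 TPM in double-negative libraries (log2 fold change 2.93 ± 0.21, adjusted p = 5.25e-06). Dock2, the main Rac activator of leukocyte migration, was 79.6, 87.6 and 71.5 TPM in CCR2-RFP and 24.9 TPM (median; 19.3 to 32.2) in sessile libraries. Dock10, an activator of Cdc42 and Rac, was 39.4, 39.4 and 49.2 TPM in CCR2-RFP, 13.4, 26.9 and 20.1 TPM in CX3CR1-GFP and 8.01, 6.95 and 6.02 TPM in double-negative libraries, with CX3CR1-GFP cells between the others. Arhgap26 was 26.4, 27.7 and 32.9 TPM in CCR2-RFP and 7.18 TPM (median; 4.51 to 10.01) in sessile libraries. Elmo2, a DOCK partner, was 13.1, 28.6 and 32.5 TPM in CCR2-RFP and 3.95 TPM (median; 3.61 to 12.1) in sessile libraries. Elmo1, the homologous partner, was lower with a log2 fold change of -0.49 ± 0.16 (adjusted p = 0.0398) and overlapping values. Dock4 (-1.17 ± 0.20) and Arhgef3 (-1.33 ± 0.13) were also lower.

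Branched-actin genes counted 11 higher, 1 lower and 8 not passed of 25 listed and 20 kept (median log2 fold change 0.57; 7 and 1 under all 5 scalings). Arpc1b, an Arp2/3 subunit of blood cells, was 99.2, 92.1 and 115 TPM in CCR2-RFP and 34.7 TPM (median; 31.2 to 44.05) in sessile libraries (log2 fold change 1.46 ± 0.12, adjusted p = 1.3e-05). Arpc2 was 192, 203 and 195 TPM in CCR2-RFP and 87.3 TPM (median; 80.2 to 109) in sessile libraries. Arpc5 was 83.1, 72.4 and 93.1 TPM in CCR2-RFP and 34.1 TPM (median; 29.99 to 41.7) in sessile libraries. Actr3, Actr2, Arpc3 and Arpc4 were also higher under all 5 scalings, so each of these 7 subunit genes was called, with log2 fold changes of 0.74 to 1.46. Arpc1a, the alternative to Arpc1b, did not pass (log2 fold change -0.28 ± 0.21, adjusted p = 0.356). The activators diverged. Was, the WASP of blood cells, was 6.15, 6.54 and 8.56 TPM in CCR2-RFP and 4.74 TPM (median; 3.73 to 5.61) in sessile libraries, higher as deposited but not under every scaling. Wasl, N-WASP, was 3.35, 1.39 and 2.63 TPM in CCR2-RFP and 8.02 TPM (median; 3.38 to 14.4) in sessile libraries, and it was lower. Of the WAVE complex, which switches Arp2/3 on at the front, Brk1 was higher as deposited but not under every scaling (0.79 ± 0.18, adjusted p = 0.00731). Nckap1l, Cyfip1, Abi1 and Wasf2 did not pass.

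Formins and Ena/VASP proteins, which make unbranched filaments, counted 5 higher, 4 lower and 2 not passed of 15 listed and 11 kept, all under all 5 scalings. Diaph1, the mDia1 formin, was 67.1, 64.3 and 61.2 TPM in CCR2-RFP and 22.7 TPM (median; 18.8 to 26.9) in sessile libraries (log2 fold change 1.48 ± 0.12, adjusted p = 1.05e-05). Inf2 was 4.39, 3.97 and 4.92 TPM in CCR2-RFP and 0.628 TPM (median; 0.308 to 1.31) in sessile libraries. Evl, an Ena/VASP protein gene, was 14.3, 13.3 and 12.7 TPM in CCR2-RFP and 3.98 TPM (median; 2.81 to 4.65) in sessile libraries. Diaph2 was 9.27, 9.03 and 7.98 TPM in CCR2-RFP and 14.9 TPM (median; 11.5 to 22.3) in sessile libraries. Fmn1 was 1.41, 0.749 and 1.16 TPM in CCR2-RFP and 4.105 TPM (median; 3.22 to 6.999) in sessile libraries. Diaph2 and Fmn1 were both lower. The list median of -0.22 was therefore below that of all genes although Inf2 had the largest change of its members, at 1.74 ± 0.21.

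Actin and its monomer-binding, severing and capping proteins counted 14 higher, 2 lower and 8 not passed of 24 kept, all calls under all 5 scalings, with a median log2 fold change of 0.93. Actb, beta-actin, was 4718, 4497 and 4905 TPM in CCR2-RFP and 2144 TPM (median; 1906 to 2371) in sessile libraries. Actg1, gamma-actin, was 736, 703 and 874 TPM in CCR2-RFP and 249 TPM (median; 226 to 285) in sessile libraries. Actb is often used for normalization, and here it differed between the groups by a log2 fold change of 1.15 ± 0.12 (adjusted p = 5.15e-05). Tmsb10 was 43.5, 51.5 and 39.4 TPM in CCR2-RFP, 4.44, 1.97 and 7.27 TPM in CX3CR1-GFP and 4.48, 0.449 and 3.61 TPM in double-negative libraries, and the abundant thymosin Tmsb4x 2782, 3160.1 and 2985 TPM in CCR2-RFP and 969 to 1528 TPM in sessile libraries. Both encode thymosins, which hold actin monomers. Profilin Pfn1 (282, 227 and 282 against 91.04 to 132 TPM) and cofilin Cfl1 (286, 243 and 282 against 115 to 146 TPM) were higher. Capg, a capping protein of macrophages, was 65.3, 64.7 and 61.6 TPM in CCR2-RFP and 12.4 TPM (median; 10.98 to 15.02) in sessile libraries. Coro1a, the leukocyte coronin, was 56.3, 59.7 and 58.3 TPM in CCR2-RFP and 14.3 TPM (median; 9.28 to 20.1) in sessile libraries. Aif1, the macrophage marker IBA1, was lower, at 5.14, 10.7 and 4.62 TPM in CCR2-RFP, 35.04, 37.005 and 24.1 TPM in CX3CR1-GFP and 19.1, 18.99 and 16.9 TPM in double-negative libraries.

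Bundling, crosslinking and membrane-linking genes counted 13 higher, 5 lower and 5 not passed of 25 listed and 23 kept (median log2 fold change 0.79; 11 and 5 under all 5 scalings). Anxa2, an annexin that binds actin at membranes, was 159, 129 and 133 TPM in CCR2-RFP and 19.8 TPM (median; 16.7 to 23.7) in sessile libraries (log2 fold change 2.76 ± 0.13, adjusted p = 6.77e-07). Ezr, ezrin, was 18.3, 17.7 and 16.6 TPM in CCR2-RFP and 2.44 TPM (median; 1.58 to 3.42) in sessile libraries. Its relative Msn, moesin, was 102, 106 and 81.2 TPM in CCR2-RFP and 43.9 TPM (median; 28.5 to 70.1) in sessile libraries. Flna, filamin A, was 109, 139 and 55.7 TPM in CCR2-RFP, 12.1, 20.3 and 27.1 TPM in CX3CR1-GFP and 12.3, 11.04 and 6.11 TPM in double-negative libraries, with CCR2-RFP 2B the lowest CCR2-RFP library and still above all sessile ones. The intermediate filament gene Vim was 793, 771 and 788 TPM against 155 to 309 TPM. Vim is also a fibroblast gene. The summed fibroblast markers were 43.5 to 79.9 TPM in CCR2-RFP and 25.0 to 154 TPM in sessile libraries, and their part in the result was not tested. Swap70 (7.17, 7.78 and 4.36 against 11.8 to 18.4 TPM), Marcksl1 (28.3, 14.2 and 21.7 against 40.2 to 60.4 TPM), Lcp1 (L-plastin, 72.6, 72.8 and 56.7 against 82.1 to 109 TPM), Pls3 and Actn1 were lower.

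Myosins and their regulators counted 8 higher, 5 lower and 8 not passed of 23 listed and 21 kept (median log2 fold change 0.39; 4 and 5 under all 5 scalings). Myo1g, a membrane-bound myosin of blood cells, was 26.6, 29.8 and 32.5 TPM in CCR2-RFP and 5.47 TPM (median; 4.38 to 6.93) in sessile libraries. Myl6, a myosin II light chain, was 153, 138 and 129.6 TPM in CCR2-RFP and 62.6 TPM (median; 55.4 to 74.8) in sessile libraries. Myo5a, which moves vesicles, was 19.5, 16.6 and 19.7 TPM in CCR2-RFP and 55.8 TPM (median; 48.9 to 64.8) in sessile libraries. Ssh2, a cofilin phosphatase, was 20.1, 21.05 and 18.6 TPM in CCR2-RFP and 49.2 TPM (median; 42.3 to 55.9) in sessile libraries. Myo5a and Ssh2 were both lower in CCR2-RFP cells. Skeletal muscle genes varied between libraries: their sum was 90.0, 1386 and 99.1 TPM in CCR2-RFP, 504, 2281 and 339 TPM in CX3CR1-GFP and 462 to 479 TPM in double-negative libraries. Without the 2 highest libraries 8 of the 9 muscle genes were called lower in CCR2-RFP cells. Without these libraries 6 myosin genes were higher and 4 lower of 21. The part of muscle RNA in the myosin result was not tested.

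Microtubule, septin and polarity genes counted 14 higher and 10 not passed of 36 listed and 24 kept, and 7 of the 14 were called under all 5 scalings (median log2 fold change 0.62). Without the 2 sort 2A libraries 13 were higher and 1 lower. Septins form a cortical corset in crawling leukocytes. Sept11 was 70.1, 77.5 and 69.6 TPM in CCR2-RFP and 13.5 TPM (median; 8.41 to 16.3) in sessile libraries, Sept9 12.8, 12.8 and 12.6 TPM against 2.196 to 3.402 TPM, and Sept6 4.09, 6.66 and 7.897 TPM against 0.0673 to 0.97004 TPM. Sept6 passed the filter on low values through CCR2-RFP libraries alone and so had to differ. The alpha-tubulin gene Tuba1a was 28.2, 21.995 and 26.1 TPM in CCR2-RFP and 6.804 TPM (median; 4.38 to 9.09) in sessile libraries, and the beta-tubulin gene Tubb5 99.4, 111 and 104 TPM against 44.3 to 49.02 TPM. Tubulin genes share sequence, so the division of reads among them is uncertain.

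**Figure D4:**
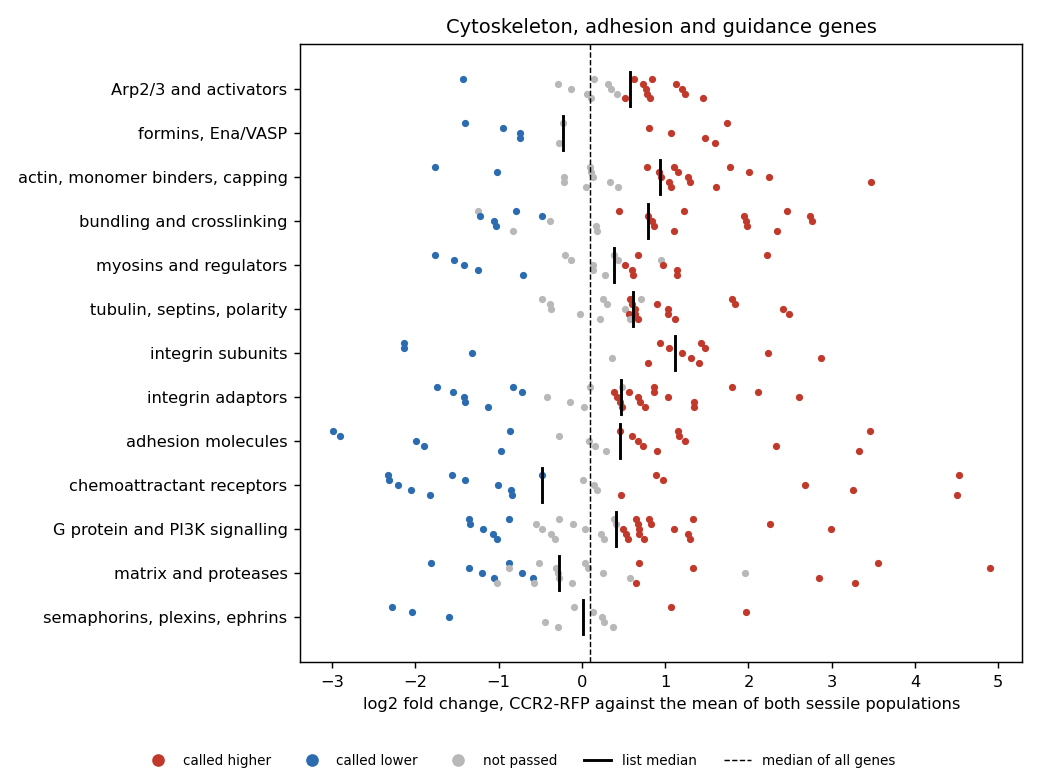
Log2 fold change of CCR2-RFP against both sessile populations for each gene kept of 13 lists (points; red called higher, blue called lower, grey not passed), with list medians as bars and the median of all genes as a dashed line. Red and blue points stand in most lists. The medians of formins, chemoattractant receptors, matrix genes and semaphorins lie left of the dashed line, and the other list medians lie right of it. Calls are those with deposited values, and some red points lose the call under other scalings.

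Within several cytoskeletal families, members stood in opposite directions; these pairs were picked after their values were seen. Talin links integrins to actin. Tln1 was 96.3, 83.6 and 84.8 TPM in CCR2-RFP and 59.5 TPM (median; 53.6 to 65.6) in sessile libraries, with a call that changed under other scalings. Tln2 was 0.236, 0.247 and 0.173 TPM in CCR2-RFP and 2.79 TPM (median; 2.16 to 5.61) in sessile libraries. Tln2 passed the filter on low values through sessile libraries alone, so the filter favoured a lower level in CCR2-RFP cells. Of the focal adhesion kinases, Ptk2b, the form of blood cells, was 7.34, 5.095 and 7.32 TPM in CCR2-RFP and 3.29 TPM (median; 1.22 to 5.43) in sessile libraries, overlapping and dependent on the scaling. Ptk2 was 1.56, 1.73 and 1.42 TPM in CCR2-RFP and 5.26 TPM (median; 3.43 to 10.3) in sessile libraries. Non-muscle myosin II heavy chains divided the same way. Myh9 was 37.3, 43.7 and 63.7 TPM in CCR2-RFP and 31.5 TPM (median; 24.4 to 36.7) in sessile libraries, again with a call that changed under other scalings. Myh10 was 0.577, 1.75 and 0.0952 TPM in CCR2-RFP and 3.73 TPM (median; 2.19 to 18.9) in sessile libraries. Myh10 was highest in CX3CR1-GFP 2A, the library highest in muscle genes. The twinfilins, which cap actin, were 22.5, 24.04 and 23.3 TPM against 4.42 to 7.57 TPM for Twf2 and 4.69, 3.09 and 5.04 TPM against 6.804 to 13.8 TPM for Twf1. They and the actinins Actn4 (9.29, 10.1 and 9.92 against 4.51 to 5.86 TPM) and Actn1 (1.06, 0.313 and 0.927 against 1.84 to 3.43 TPM) differed in direction under all 5 scalings. On the length-corrected TPM scale Twf1 was above Twf2 in the sessile medians and Twf2 above Twf1 in every CCR2-RFP library, and Ptk2 and Ptk2b changed places in the same way.

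**Figure D5:**
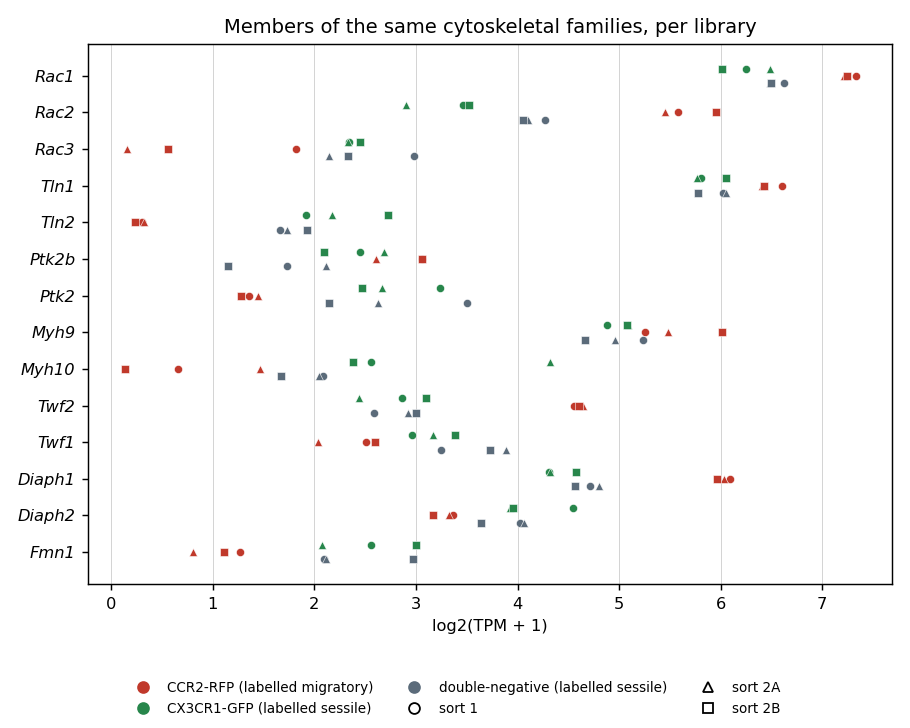
Level of cytoskeletal family members in each library (log2(TPM + 1)); colours are populations and shapes are sorts. Rac1 and Rac2 lie to the right and Rac3 to the left in CCR2-RFP cells, and Tln1 and Tln2, Twf2 and Twf1, and Diaph1 and Diaph2 part the same way; the higher calls of Tln1, Ptk2b and Myh9 change under other scalings.

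Integrin subunits counted 10 higher, 3 lower and 1 not passed of 25 listed and 14 kept, all under all 5 scalings, with a median of 1.12. The filter on low values was passed by 2 members, Itgb7 among them, through CCR2-RFP libraries alone. Itgb5 and Itga9 passed it through sessile libraries alone, so the filter favoured the direction of these members. The beta-2 chain of leukocytes and its 3 alpha partners kept, Itgam (above), Itgax and Itgal, were all higher. Itgb2 was 44.6, 43.96 and 50.5 TPM in CCR2-RFP, 12.5, 12.7 and 14.9 TPM in CX3CR1-GFP and 19.5, 22.8 and 21.7 TPM in double-negative libraries. Itgax, which encodes CD11c, was 8.31, 8.58 and 9.34 TPM in CCR2-RFP and 0.181 TPM (median; 0.113 to 1.35) in sessile libraries. Itgal, the alpha chain of LFA-1, was 2.176, 1.49 and 1.702 TPM against 0.0841 to 1.31 TPM. Itgb2 was lower in CX3CR1-GFP than in double-negative cells (sessile log2 difference -0.64 ± 0.14, adjusted p = 0.0428). Itga4, the alpha chain of VLA-4, was 84.5, 101 and 88.6 TPM in CCR2-RFP and 31.5 TPM (median; 23.8 to 42.99) in sessile libraries. Itgb7, its alternative partner, was 5.72, 6.66 and 5.88 TPM in CCR2-RFP and 0.502 TPM (median; 0.296 to 0.801) in sessile libraries. Fibronectin is a ligand of Itga4 and of Itga5, which was 19.4, 9.56 and 8.96 TPM in CCR2-RFP and 4.53 TPM (median; 2.13 to 6.03) in sessile libraries. The lower members were Itgb5, Itga9 and Itga6. Itgb5, which pairs with the alpha-v chain, was 0.212, 0.404 and 0.0932 TPM in CCR2-RFP, 7.904, 11.9 and 7.87 TPM in CX3CR1-GFP and 1.87, 1.85 and 2.07 TPM in double-negative libraries. Itgb5 was also higher in CX3CR1-GFP than in double-negative cells (sessile log2 difference 1.78 ± 0.21, adjusted p = 0.00218). Itga9 was 0.599, 0.425 and 0.593 TPM in CCR2-RFP and 5.42 TPM (median; 4.52 to 8.29) in sessile libraries. Itga6, a laminin receptor chain, was 0.6304, 4.69 and 0.831 TPM in CCR2-RFP and 5.44 TPM (median; 1.88 to 15.6) in sessile libraries, with overlap. Without the 2 sort 2A libraries 7 subunits were higher and 3 lower of 12 kept.

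Integrin adaptors and podosome genes counted 16 higher, 7 lower and 5 not passed of 35 listed and 28 kept (median log2 fold change 0.47), and only 6 of the higher but all 7 of the lower were called under all 5 scalings. Zyx, zyxin, was 80.5, 69.9 and 97.3 TPM in CCR2-RFP and 19.7 TPM (median; 13.4 to 24.1) in sessile libraries. Vcl, vinculin, was 17.9, 16.05 and 21.9 TPM in CCR2-RFP and 4.29 TPM (median; 3.73 to 5.98) in sessile libraries. Fgr, a Src family kinase of myeloid cells, was 6.49, 6.87 and 8.22 TPM in CCR2-RFP and 0.271 TPM (median; 0.0895 to 0.751) in sessile libraries. Fgr passed the filter on low values through CCR2-RFP libraries alone and so had to differ. Adhesion molecules counted 11 higher, 6 lower and 4 not passed of 31 listed and 21 kept (median log2 fold change 0.46; 7 and 6 under all 5 scalings). Cd44, the hyaluronan receptor, was 111, 117 and 103 TPM in CCR2-RFP and 20.8 TPM (median; 16.5 to 28.05) in sessile libraries (log2 fold change 2.33 ± 0.13, adjusted p = 1.22e-06). Alcam was 40.99, 46.7 and 39.1 TPM in CCR2-RFP, 3.697, 6.03 and 5.47 TPM in CX3CR1-GFP and 2.45, 2.16 and 1.71 TPM in double-negative libraries. Emb, embigin, was 43.999, 48.3 and 44.8 TPM in CCR2-RFP and 3.14 TPM (median; 1.66 to 6.59) in sessile libraries. Selplg, the P-selectin ligand, was 41.5, 44.3 and 51.9 TPM in CCR2-RFP and 19.7 TPM (median; 14.5 to 28.2) in sessile libraries. Among the lower, the tetraspanin Cd63 was 15.8, 5.65 and 8.84 TPM in CCR2-RFP and 82.96 TPM (median; 71.3 to 92.3) in sessile libraries, and the lectin Cd33 was 11.8, 5.84 and 5.37 TPM in CCR2-RFP and 60.99 TPM (median; 45.0 to 77.6) in sessile libraries. Ninj1 was 33.1, 16.7 and 18.8 TPM in CCR2-RFP, 53.1, 48.1 and 36.4 TPM in CX3CR1-GFP and 152, 157 and 156 TPM in double-negative libraries. Ninj1 also differed between the sessile populations, by -1.75 ± 0.24 on the log2 scale (adjusted p = 0.00383).

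Matrix proteins and proteases counted 7 higher, 7 lower and 13 not passed of 39 listed and 27 kept (median log2 fold change -0.27; 5 and 7 under all 5 scalings; 5 and 3 of 24 without the 2 sort 2A libraries). Plaur, the urokinase receptor, was 18.4, 19.9 and 27.9 TPM in CCR2-RFP and 2.2004 TPM (median; 1.75 to 2.66) in sessile libraries. Mmp19 was 35.4, 35.7 and 35.6 TPM in CCR2-RFP and 2.08 TPM (median; 1.22 to 4.24) in sessile libraries. Adam8 was 13.99, 14.4 and 13.3 TPM in CCR2-RFP and 0.539 TPM (median; 0.255 to 0.867) in sessile libraries. Both are metalloproteases. Plaur and Mmp19 had no overlap between the groups. Adam8 passed the filter on low values through CCR2-RFP libraries alone and so had to differ. Mmp13, a collagenase, was 0.0409, 0 and 0.114 TPM in CCR2-RFP, 5.04, 17.6 and 7.24 TPM in CX3CR1-GFP and 0.240, 0.542 and 0.401 TPM in double-negative libraries, with CX3CR1-GFP above double-negative cells (sessile log2 difference 2.81 ± 0.35, adjusted p = 0.00264). Mmp13 passed the filter on low values through CX3CR1-GFP libraries alone, so the filter favoured a lower level in CCR2-RFP cells. Mmp9, a gelatinase, was 4.87, 3.46 and 3.57 TPM in CCR2-RFP, 5.18, 17.5 and 4.42 TPM in CX3CR1-GFP and 18.2, 28.3 and 10.7 TPM in double-negative libraries, lower with overlap. Timp2, an inhibitor of metalloproteases, was 74.5, 73.4 and 70.6 TPM in CCR2-RFP, 119, 108 and 126 TPM in CX3CR1-GFP and 194, 204 and 197 TPM in double-negative libraries. Semaphorins, plexins and their partners counted 2 higher, 3 lower and 7 not passed of 37 listed and 12 kept (median 0.02), all under all 5 scalings. Over all genes 19.1% were higher and 11.2% lower as deposited, and 10.6% each under all 5 scalings. The higher count of the semaphorin list did not exceed the deposited share, and the lower count did. Under all 5 scalings both counts exceeded the share of all genes, but they rest on few genes. Plxnd1 was 35.2, 32.8 and 35.95 TPM in CCR2-RFP and 8.13 TPM (median; 5.93 to 10.3) in sessile libraries. Nrp1, neuropilin-1, was 37.1, 30.996 and 44.7 TPM in CCR2-RFP and 159 TPM (median; 123 to 185) in sessile libraries. Sema6d was 2.08, 1.16 and 1.54 TPM in CCR2-RFP and 11.1 TPM (median; 8.49 to 16.4) in sessile libraries.

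Chemokine ligands counted 6 higher, 7 lower and 6 not passed of 29 listed and 19 kept (median log2 fold change -0.83; 4 and 7 under all 5 scalings), and 8 of the 19 also differed between the sessile populations. Ccl9 was 373, 386 and 411 TPM in CCR2-RFP, 111, 86.1 and 113 TPM in CX3CR1-GFP and 172, 202 and 249 TPM in double-negative libraries. Ccl6 was 1031, 904 and 1169 TPM in CCR2-RFP, 146, 101 and 199.6 TPM in CX3CR1-GFP and 459, 467 and 639.5 TPM in double-negative libraries. In both genes CX3CR1-GFP cells were lowest. Pf4, platelet factor 4, was 111, 56.5 and 103 TPM in CCR2-RFP and 477 TPM (median; 324 to 621) in sessile libraries. Ccl12 was 4.69, 0.274 and 3.54 TPM in CCR2-RFP, 47.4, 123 and 37.2 TPM in CX3CR1-GFP and 27.1, 26.7 and 33.3 TPM in double-negative libraries. Ccl7, another CCR2 ligand, was 28.8, 11.1 and 28.2 TPM in CCR2-RFP and 98.8 TPM (median; 52.2 to 121) in sessile libraries. Ccl2, the main CCR2 ligand, was 70.4, 32.6 and 65.3 TPM in CCR2-RFP and 118 TPM (median; 69.3 to 143) in sessile libraries (log2 fold change -1.04 ± 0.27, adjusted p = 0.0151), with overlap. Ligands of CCR2 were thus lower in the cells that carried the receptor. Ccl2, Ccl7, Ccl8 and Ccl12 are close relatives, so reads shared among them are uncertain.

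Transcription factors counted 19 higher, 13 lower and 23 not passed of 60 listed and 55 kept (median log2 fold change 0.33; 16 and 13 under all 5 scalings). Id2, an inhibitor of E proteins, was 68.3, 67.3 and 83.02 TPM in CCR2-RFP and 6.42 TPM (median; 5.12 to 13.7) in sessile libraries (log2 fold change 3.14 ± 0.18, adjusted p = 1.42e-06). Tcf4, an E protein, was 15.3, 19.6 and 14.05 TPM in CCR2-RFP and 56.2 TPM (median; 51.5 to 69.01) in sessile libraries (-1.77 ± 0.15, adjusted p = 1.32e-05). Nfil3 was 14.1, 19.1 and 17.5 TPM in CCR2-RFP and 1.603 TPM (median; 0.601 to 2.77) in sessile libraries. Bhlhe40 was 18.99, 17.2 and 20.6 TPM in CCR2-RFP and 1.78 TPM (median; 0.687 to 3.69) in sessile libraries. Bhlhe41, its closest relative, was 0.192, 0.0335 and 0 TPM in CCR2-RFP, 10.2, 7.25 and 5.25 TPM in CX3CR1-GFP and 4.95, 0.507 and 1.46 TPM in double-negative libraries. Bhlhe41 was also uneven among sessile libraries. Maf was 37.7, 25.4 and 30.6 TPM in CCR2-RFP and 169 TPM (median; 146 to 185) in sessile libraries. Spic, known from red pulp macrophages, was 0.108, 0.237 and 0.145 TPM against 2.52 to 6.18 TPM. Spic and Bhlhe41 passed the filter on low values through sessile libraries alone, so the filter favoured a lower level in CCR2-RFP cells. Mkl1 and Mkl2, actin-regulated coactivators of SRF, were higher (1.06 ± 0.18 and 1.50 ± 0.27), and Srf did not pass (0.26 ± 0.17, adjusted p = 0.276).

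Cytokine and growth factor receptors counted 5 higher, 12 lower and 13 not passed of 39 listed and 30 kept (median log2 fold change -0.25), all under all 5 scalings. Csf2ra, the alpha chain of the receptor for GM-CSF, was 45.5, 47.6 and 44.2 TPM in CCR2-RFP and 11.7 TPM (median; 6.87 to 15.8) in sessile libraries. Csf1r, the receptor for M-CSF, was 67.7, 61.2 and 61.2 TPM in CCR2-RFP and 207 TPM (median; 174 to 229) in sessile libraries. Csf2ra and Csf1r stood in opposite directions, each without overlap, and Csf2ra is a single chain of its receptor. Tgfbr2 was 6.79, 9.004 and 11.9 TPM in CCR2-RFP and 42.2 TPM (median; 26.5 to 49.02) in sessile libraries. Tgfbr1 was 2.21, 3.08 and 1.55 TPM in CCR2-RFP, 14.9, 23.6 and 10.9 TPM in CX3CR1-GFP and 6.196, 3.41 and 3.13 TPM in double-negative libraries. Both chains make up the TGF-beta receptor, and both were lower. Tnfrsf21 was 18.4, 20.7 and 21.2 TPM in CCR2-RFP and 4.64 TPM (median; 1.499 to 6.36) in sessile libraries. P2 receptors sense extracellular nucleotides. Of 16 listed and 8 kept, 2 were higher and 5 lower (all under all 5 scalings). The 2 higher members, P2ry1 and P2ry10, passed the filter on low values through the CCR2-RFP libraries alone and so had to differ. Through sessile libraries alone 1 member passed, so the filter favoured a lower level for it. P2ry1 was 4.97, 5.42 and 6.61 TPM against 0.121 to 0.5998 TPM and P2ry13 2.09, 0.0452 and 1.05 TPM against 13.99 to 22.03 TPM.

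Genes of other cells and states were measured beside these lists. Mast cell markers summed to 11.4, 35.3 and 7.08 TPM in CCR2-RFP and 0.423 to 7.68 TPM in sessile libraries (exact permutation p = 0.0357, adjusted 0.152), with CCR2-RFP 2A the highest. Of 3 markers kept, Mcpt4 and Cpa3 were called higher, Cpa3 not under every scaling, and neither was called without the 2 sort 2A libraries. B cell markers summed to 14.3 to 14.4 TPM in CCR2-RFP and 42.2 to 70.8 TPM in sessile libraries (exact permutation p = 0.0119, adjusted 0.0674), nearly all from Ighm, with Igkc listed at 0 in every library. T and NK cell markers summed to 7.04 to 15.1 TPM against 2.08 to 12.5 TPM, neutrophil markers to 1.36 to 3.01 TPM against 3.33 to 24.5 TPM with Elane listed at 0, and eosinophil markers to at most 1.63 TPM with Prg2 and Ear6 listed at 0. Mesothelial and endothelial markers summed to at most 7.10 and 7.96 TPM. The part of these cells in each result was not tested. Cell cycle genes summed to 72.7 to 86.0 TPM in CCR2-RFP and 34.6 to 59.3 TPM in sessile libraries (exact permutation p = 0.0119, adjusted 0.0674), with 8 of 14 called higher (limma) and 6 not passed. Of the 8, 5 were called under all 5 scalings and 4 were separated. Mki67, a marker of dividing cells, was 4.82, 7.72 and 7.91 TPM in CCR2-RFP, 1.42, 1.37 and 4.86 TPM in CX3CR1-GFP and 1.07, 1.37 and 2.42 TPM in double-negative libraries, and CX3CR1-GFP 2B overlapped the CCR2-RFP range. Immediate-early and heat shock genes, which rise during tissue digestion, summed to 3214 to 3832 TPM against 3463 to 4903 TPM, with members in both directions. Jun was lower, at 109, 82.4 and 92.7 TPM in CCR2-RFP and 264 TPM (median; 205 to 313) in sessile libraries. Fosl2 was higher, at 21.7, 25.2 and 30.9 TPM in CCR2-RFP and 8.14 TPM (median; 6.15 to 9.37) in sessile libraries.

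The edge of separation was read from the genes nearest to it, without a test. Just inside, Myo1f was 22.6, 20.6 and 25.6 TPM in CCR2-RFP and 13.6 TPM (median; 9.099 to 20.6) in sessile libraries. Nckap1l was 49.04, 48.9 and 59.7 TPM in CCR2-RFP and 40.03 TPM (median; 37.3 to 48.9) in sessile libraries. Just outside, Tmem176a was 86.4, 103 and 82.1 TPM in CCR2-RFP and 61.8 TPM (median; 52.1 to 82.1) in sessile libraries. Kmt2c was 17.4, 18.2 and 15.98 TPM in CCR2-RFP and 14.7 TPM (median; 14.2 to 15.99) in sessile libraries. On the lower side Atraid (8.76, 8.69 and 9.84 against 9.86 to 20.9 TPM) and Rapgef6 (7.75, 9.85 and 10.9 against 10.96 to 24.1 TPM) were just inside. Fxyd2 (18.8, 11.3 and 10.8 against 18.8 to 67.3 TPM) and Bsg (17.5, 19.7 and 17.02 against 19.6 to 25.7 TPM) were just outside. Fxyd2 was outside because a single pair of libraries, CCR2-RFP 1 and CX3CR1-GFP 1, touched at 18.8 TPM. Separation and calls did not coincide: 207 higher and 146 lower separated genes were not called, and 288 higher and 230 lower called genes overlapped. Of the 1852 genes separated higher, 163 passed the filter on low values through CCR2-RFP libraries alone, and of the 1047 separated lower, 267 through sessile libraries alone, so such genes had to differ.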

How the data were processed

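RNA of sorted peritoneal wall phagocytes was measured in 9 libraries, made per the labels' protocols from 1 ng of total RNA each (NuGEN Ovation SoLo) and read as paired ends of 75 bases. The authors deposited 1 table of TPM for 28764 gene symbols. The submitters' processing notes name bcl2fastq 2.18, cutadapt 1.8.3, Salmon 0.11.3 and the build mm10. Which annotation and strand setting were used is not stated there. TPM keeps no read counts, so the depth behind each value is unknown and no counting interval was made. The listed TPM of a library summed to 278579 to 382828, short of the whole that TPM is scaled to, so the deposited table holds a portion of each total. Populations were taken from the sample titles, which match the column headings; the free-text description of the 6 reporter-positive samples names the other reporter-positive population and was not used.

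The 10136 genes reaching 1 TPM in 3 or more libraries were fitted with limma 3.58.1 in R 4.3.3 on log2(TPM + 1), with a mean per population, an intensity trend and Benjamini-Hochberg adjustment over all genes kept. Fold changes are on that scale, with standard errors, and understate the change of low genes. The main contrast was CCR2-RFP minus the mean of both sessile population means. The script was tested on simulated data. Named genes are those behind the sort, P2 receptors kept, the 12 with the widest gap in each direction (outside the genes behind the sort, called, at least 10 TPM on the higher side, no predicted or ribosomal protein genes), up to 4 called members of each list with the widest gap, and those nearest to separation or most and least different between sessile populations; further list members were named after their values were seen, and some members are not reported here. The members and gene lists were chosen with earlier results of these data known. Sums of marker genes were compared by exact permutation. Scaling, pseudocount, filter, replicate block and left-out libraries were tried as alternatives.

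Sort labels 1, 2A and 2B recur in each population. Deviations from the population means correlated by 0.03 to 0.21 between libraries of the same label (9 pairs, 1 above 0.1) and by -0.16 to 0.11 between different labels, so the labels were not used to pair libraries. The p-values measure the spread between these libraries. Gene bounds are from GENCODE and promoters from RefSeq, both on GRCm38; 9601 of the genes kept matched GENCODE by symbol.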

Additional observations from a re-analysis of the deposited data

Results flagged for a closer look

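For the 156 genes named by the rule, the 6 sessile libraries were searched for a library far from the others on log2(TPM + 1) by Dixon's criterion, and 12 genes had one. Chance gives about 1 gene in 20, and the genes share libraries. CX3CR1-GFP 2A accounted for 6 of the 12. In it the muscle genes Ttn (686.7724 TPM, the other sessile libraries 140 to 238) and Myh4 (589.7263 TPM, others 56.9 to 123) were high, as was the chemokine gene Ccl12 (122.5717 TPM, others 26.7 to 47.4) and the receptor gene Gpr35 (0.8428 TPM, others 0.0970 to 0.326). The nucleotide receptor gene P2rx7 (23.0231 TPM, others 33.6 to 39.1) and the lipid carrier gene Fabp5 (0.2307 TPM, others 0.898 to 1.46) were low there.

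In CX3CR1-GFP 2B, Itgax was high (1.3524 TPM, others 0.113 to 0.312), as was Nckap1l (48.8911 TPM, others 37.3 to 41.0), and the mitochondrial gene ND6 was low (347.0854 TPM, others 549 to 712). Fn1 was low in CX3CR1-GFP 1 (6.7286 TPM, others 33.2 to 76.4). Stab1 was low in double-negative 2B (63.4495 TPM, others 79.9 to 91.0), and Spink2 was 0.1461 TPM in double-negative 2A and listed at 0 in the other 5 sessile libraries.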

How the results depend on the processing

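Of 156 named genes 149 were called, 126 of them in every alternative that tested them; 23 lost the call in at least 1 of up to 23 alternatives and none changed direction. Genes called higher (1933) fell to 1110 without mitochondrial, ribosomal protein and ribosomal RNA genes, 1141 also without Siglece, 907 at a fold change of at least 2, 1199 when called against each sessile population and 1075 under all 5 scalings. Leaving out 1 library gave 1244 to 2023, with 1244 without CCR2-RFP 2B. Genes called lower (1131) fell to 704 with a filter of 5 TPM, 552 at a fold change of at least 2 and 640 against each sessile population, and leaving out 1 library gave 846 to 1128.

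Genes separated higher (1852) numbered 1056 without mitochondrial and ribosomal genes, 1121 also without Siglece, 994 under all 5 scalings and 1932 to 2112 without 1 library. Genes separated lower (1047) numbered 583 with the filter of 5 TPM, 1623 also without Siglece, 1575 without the 2 sort 2A libraries high in muscle genes and 1067 to 1422 without 1 library; fewer libraries leave fewer values to separate. Genes separated and called (2546) numbered 1321 at a fold change of at least 2 and 1994 to 2765 without 1 library. Of these, 129 differed between the sessile populations, 62 with no filter and 59 to 128 without 1 library: 77 without CX3CR1-GFP 2A, 59 without double-negative 1, 61 without double-negative 2A and 71 without double-negative 2B. Other causes were not tested. With the sort label as a replicate block 1876 genes were higher and 1123 lower.

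Alternatives that pooled the sessile libraries or required a call against each ended calls of genes far apart between sessile populations, C4b and Ms4a8a among them, and Arglu1 lost its call in 15 alternatives. The comparisons under all 5 scalings and without the 2 sort 2A libraries were chosen after the data were seen. Precision is limited by 3 libraries per population, and TPM gives no depth.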
